A study of Mus musculus with 20 samples.

Results

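The classical cadherins (gene names Cdh followed by a number) and the protocadherins (names beginning with Pcdh) were described across the cell classes and treatment groups of the mouse basolateral amygdala (BLA). Of 31053 genes in the count tables, 92 carried such a name. A gene was taken as a member if it had at least 10 UMIs (unique molecular identifiers, each standing for 1 captured transcript) in total over 9 of the 10 libraries, and 79 genes were. The members were therefore chosen by their total UMI count, and no comparison of totals is used as a result. The members just inside the limit were Pcdhac2, Cdh15 and Pcdhb2 with 11 UMIs each and Pcdha4 and Pcdhb8 with 14, and the genes just outside it were Cdh26 with 8, Pcdha6 with 6 and Pcdha2 and Pcdha3 with 5. The epithelial cadherin Cdh1 (3 UMIs) and the placental cadherin Cdh3 (4 UMIs) were among the 13 genes left out. The members together held 26148 UMIs, or 1962 per 1000000 UMIs (CPM).

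Male C57BL/6 wild type mice, 13 weeks old, drank water with either corticosterone (CORT, 35 µg/ml) or its carrier 2-hydroxypropyl cyclodextrin (BCD) for 6 weeks, then received ketamine (Ket, 10 mg/kg, intraperitoneal) or saline (Sal), and tissue was taken 24 h later. CORT/Ket mice were 9967, 9968 and 9971, CORT/Sal mice 9969 and 9970, BCD/Ket mice 9946, 9949 and 9986, and BCD/Sal mice 9901 and 9947, with 1 droplet library of dissociated cells per mouse. The group names are written with a hyphen in the labels. All groups share strain, genotype, age and the time between injection and tissue collection, and no group was left without an injection. The labels give the tissue as BLA while the protocol text attached to them names prefrontal cortex, and the series' design text describes the controls as given plain water.

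Cadherins are calcium-dependent adhesion molecules whose extracellular cadherin repeats bind a partner cadherin on the facing cell. Type I and type II classical cadherins connect to actin through catenins, and neurons use different combinations of them at synapses. The δ-protocadherins are divided into δ1 (Pcdh1, Pcdh7, Pcdh9, Pcdh11x) and δ2 (Pcdh8, Pcdh10, Pcdh17, Pcdh18, Pcdh19), the second group binding the WAVE actin-regulating complex. The clustered protocadherins Pcdha, Pcdhb and Pcdhg lie side by side in the genome, and each neuron uses a few of their alternative promoters, which gives it a surface identity of its own. Among the members, 3 were type I, 13 type II, 2 other Cdh genes, 4 δ1, 5 δ2, 3 other Pcdh genes, 7 α-cluster, 21 β-cluster and 21 γ-cluster genes.

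Start-site sequences of 4 members are shown because each member was called higher, by both references described further on, in a different cell class: Pcdh15 in oligodendrocyte precursor cells, Pcdh8 in GABAergic neurons, Pcdh18 in mural cells and Pcdh10 in astrocytes. These were not always the only such classes. Pcdh10 was also called higher by both in oligodendrocyte precursor cells and GABAergic neurons, and Pcdh8 in oligodendrocyte precursor cells and excitatory neurons. Each is the RefSeq window of 300 bases on GRCm38.p6, from 250 bases before to 50 after the annotated start, written 5′ to 3′ on the gene's strand. An exact search was made on both strands for 6 short strings. They were TATAAA, the TATA box, and CAGCTG, an E-box, both marked in capitals where found. The others were CATTGT, which is part of sites bound by SOX factors, and AGATAA, which is part of sites bound by GATA factors. Finally came CCGGAA, found in sites bound by ETS factors, and its longer relative for the factor PU.1, GAGGAAGT, and the last pair overlap in their core.
Pcdh15: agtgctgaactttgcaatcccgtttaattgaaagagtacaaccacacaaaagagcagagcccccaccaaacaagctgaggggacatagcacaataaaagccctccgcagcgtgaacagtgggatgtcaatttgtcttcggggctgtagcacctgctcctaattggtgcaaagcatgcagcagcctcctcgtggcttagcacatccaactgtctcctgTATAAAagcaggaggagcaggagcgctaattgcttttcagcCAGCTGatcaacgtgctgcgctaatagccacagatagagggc
Pcdh8: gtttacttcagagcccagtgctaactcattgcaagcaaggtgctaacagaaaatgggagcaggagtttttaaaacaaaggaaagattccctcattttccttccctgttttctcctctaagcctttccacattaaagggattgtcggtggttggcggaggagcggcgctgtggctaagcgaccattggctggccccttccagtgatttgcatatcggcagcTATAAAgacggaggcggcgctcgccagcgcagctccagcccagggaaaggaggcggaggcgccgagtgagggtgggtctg
Pcdh18: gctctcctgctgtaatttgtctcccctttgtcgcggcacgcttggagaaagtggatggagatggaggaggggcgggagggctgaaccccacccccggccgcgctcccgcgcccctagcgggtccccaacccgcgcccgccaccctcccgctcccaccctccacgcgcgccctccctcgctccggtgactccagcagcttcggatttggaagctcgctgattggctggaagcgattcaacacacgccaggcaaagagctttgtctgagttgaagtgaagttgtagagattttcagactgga
Pcdh10: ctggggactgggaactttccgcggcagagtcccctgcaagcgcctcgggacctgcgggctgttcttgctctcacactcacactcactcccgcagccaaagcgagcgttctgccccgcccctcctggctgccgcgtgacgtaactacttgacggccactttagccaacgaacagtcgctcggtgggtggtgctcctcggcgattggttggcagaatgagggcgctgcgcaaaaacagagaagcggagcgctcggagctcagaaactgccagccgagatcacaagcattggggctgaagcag
The Pcdh15 window (chr10:73821617-73821916, plus strand, 50.7% G and C, 8 CpG) held TATAAA from position 218 and CAGCTG from position 259, counted from 1 at the window's 5′ end. The Pcdh8 window (chr14:79771263-79771562, minus strand, 54.3% G and C, 14 CpG) held TATAAA from position 221. The windows of Pcdh18 (chr3:49757267-49757566, minus strand, 63.0% G and C, 23 CpG) and Pcdh10 (chr3:45378148-45378447, plus strand, 62.3% G and C, 24 CpG) held none of the 6 strings. TATAAA was present in 13.6% of 32851 mouse windows, CAGCTG in 16.3%, CCGGAA in 14.9%, CATTGT in 12.6%, AGATAA in 11.2% and GAGGAAGT in 3.20%. Windows of 21 members were searched, and they are a description of letters, not of binding. On NCBIM37, Pcdh15 spans bases 72562090 to 74112482 of chromosome 10 and Pcdh8 spans 80166587 to 80171119 of chromosome 14.

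In the 9 libraries, 5908 barcodes with at most 12.5% mitochondrial UMIs and at least 200 genes were kept (135 to 1274 per library, 16.8% to 31.0% of the deposited barcodes), with a median of 826 to 2845 UMIs each. The library of CORT/Sal mouse 9970 stood apart, with 97.1% of barcodes kept against that range, and was left out of the rule and of the comparison of classes. Clusters were made without the member genes and named from marker lists. Classes with at least 10 cells in at least 3 libraries were used, which gave 10 classes and 5769 cells: excitatory-neuron-like (1014), GABAergic-neuron-like (297), astrocyte-like (1357), oligodendrocyte-precursor-like (OPC, 394), oligodendrocyte-like (374), endothelial-like (1083), mural-like (270), ependymal-like (65), microglia-like (863) and macrophage-like (52). Clusters named fibroblast (27 cells) and erythroid (6 cells) did not reach this and were not measured. The suffix is dropped from here on. All 8 OPC, 12 astrocyte, 10 endothelial, 10 mural, 10 oligodendrocyte, 11 microglia, 7 macrophage and 8 ependymal markers were highest in their own class, as were 10 of 11 excitatory and 9 of 11 interneuron markers. The GABAergic class also held striatal-type markers (Penk), and the ependymal class choroid plexus genes (Ttr). At most 10 kept barcodes were shared by any pair of libraries. Marker RNA of other classes was present, for example Gad1 at 70.6 CPM in OPC against 943 in the GABAergic class, and Nxph1, listed for GABAergic neurons, at 495 in OPC against 162. Endothelial markers in mural cells reached 31.0% to 48.0% of their endothelial level. The part of such RNA in member levels was not tested.

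Levels are given as CPM, UMIs per 1000000 UMIs of a class in 1 library, as mean ± SD over libraries with at least 10 cells of that class. The whole family was highest in OPC at 5459 ± 928 CPM (n = 6), then in GABAergic neurons at 3282 ± 555 (n = 9), excitatory neurons at 2719 ± 467 (n = 9) and astrocytes at 2617 ± 453 (n = 9). Oligodendrocytes had 1609 ± 400 (n = 8), mural cells 1397 ± 181 (n = 7) and endothelial cells 1121 ± 155 (n = 9). Ependymal cells had 436 ± 141 (n = 3), microglia 215 ± 113 (n = 6) and macrophages 104 ± 104 (n = 4, from 9 UMIs). The lowest OPC library, at 4295, lay above the highest GABAergic library, at 4100, while the ranges of both neuron classes and astrocytes overlapped. With UMIs pooled over the libraries of a class, members at or above 50 CPM numbered 19 in OPC, 17 in excitatory neurons, 16 in GABAergic neurons, 10 in astrocytes, 6 each in oligodendrocytes and mural cells, 3 in endothelial cells, 2 in ependymal cells and 0 in microglia and macrophages. These levels rest on sums of 7685 UMIs (mural, mouse 9946) to 849408 UMIs (excitatory, mouse 9901), so that 1 UMI is worth 130.1 CPM in the smallest. Since the tags come from the 3′ end, levels compare 1 gene between classes, and shares of the family are shares of UMIs.

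The classes also differed in how the family's UMIs were divided. In oligodendrocytes, Pcdh9 alone took 54.0% of them, and in endothelial cells Cdh5 took 45%. No member took more than 19.6% in astrocytes (Pcdh10), 17.5% in OPC (Pcdh15), 16.3% in mural cells (Pcdh18), 13.2% in excitatory neurons or 11.5% in GABAergic neurons (Pcdh9 in both). In microglia the leading member was Cdh23 with 16.0% of 319 family UMIs.

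**Figure D1:**
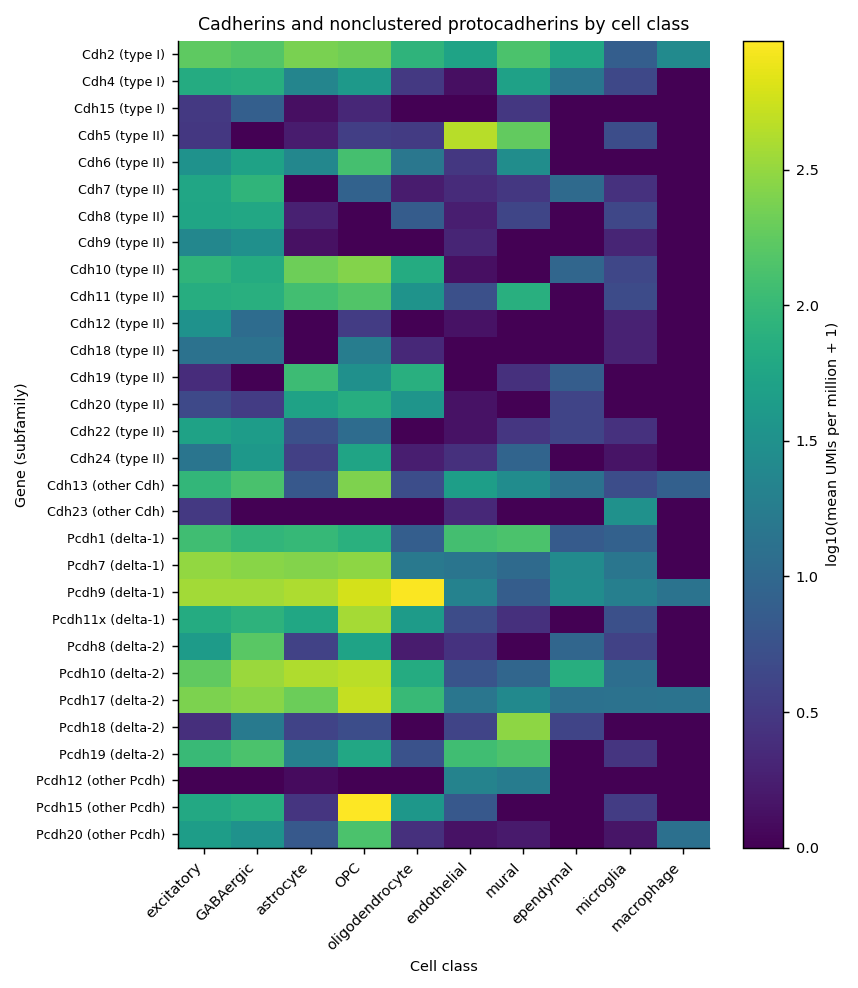
Mean level of the 30 cadherins and nonclustered protocadherins (rows, with their subfamily) in the 10 cell classes (columns), as log10 of mean CPM plus 1. Wide blocks of colour are seen in OPC, neurons and astrocytes, single bright cells at Cdh5 in endothelial cells (449 CPM) and Pcdh18 in mural cells (297 CPM), and dark columns in microglia and macrophages.

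Each class was compared with the unweighted mean of the other 9 classes by edgeR's quasi-likelihood test with the mouse as a block, adjusted over all 8112 genes tested. The filter on low counts kept 24 of the 79 members, and a gene could pass it through the class in which it was high, so the counts describe these 24 and say nothing of the other 55. In GABAergic neurons 22 members were higher (33.9% of all genes were), in excitatory neurons 21 (44.4%), in OPC 20 (29.2%) and in astrocytes 13 (33.4%). Mural cells had 8 (23.9%), oligodendrocytes 7 (24.1%), endothelial cells 3 (29.8%) and microglia (26.7%), macrophages (10.9%) and ependymal cells (16.7%) had 0. Over all classes 18 of the 240 member tests were called lower, against 12.3% of all gene-by-class tests. The median log2 difference of the 24 members was 3.17 in OPC against 0.16 for all genes, 2.5 against 0.12 in GABAergic neurons, 2.40 against 0.30 in excitatory neurons, −1.33 against −0.03 in endothelial cells and −2.16 against −0.07 in microglia.

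The reference of that test is a mean of logs, and 20 of the 24 members had 0 UMIs in at least 1 class. A class at 0 pulls such a reference far down, so that a low level elsewhere can be called higher and can hardly be called lower, and the fitted log2 value depends on the prior count and is no bound. Pcdhb9 was called higher in excitatory neurons (log2 1.36) at a level of only 2.5 CPM. A second reference, the summed other classes of the same mouse, was therefore added after the data had been seen. It weights each class by the UMIs it contributed, and its filter on low counts was applied class by class. The mix of classes in this reference therefore differed between mice. Mouse 9947, for example, had 0 microglia and 0 OPC, against 128 and 51 in mouse 9949. Against it 20 of 34 members tested were higher and 2 lower in OPC (16.5% and 21.8% of all genes), 9 of 16 higher and 3 lower in astrocytes (23.3% and 30.9%), 8 of 17 higher and 0 lower in excitatory neurons (30.4% and 30%) and 6 of 15 higher and 0 lower in GABAergic neurons (15.3% and 22%). The vessel classes had 3 of 14 higher and 10 lower in endothelial cells (27.4% and 36.2%) and 5 of 16 higher and 8 lower in mural cells (16.4% and 23.0%). Oligodendrocytes had 1 of 11 higher and 6 lower (26.1% and 32.2%), microglia 1 of 25 higher and 24 lower (28.0% and 34.9%), macrophages 0 of 21 higher and 13 lower (5.56% and 21.4%) and ependymal cells 0 of 28 higher and 12 lower (8.39% and 13.3%). In the text that follows, a log2 difference is against the mean of the other classes unless it is said to be against the summed classes.

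Among the type I cadherins, Cdh2 (N-cadherin, the main classical cadherin of neurons and glia) was spread over most classes. It stood at 237 ± 46.6 CPM in astrocytes, 212 ± 74.9 in OPC, 173 ± 37.2 in excitatory neurons, 151 ± 72.5 in GABAergic neurons and 134 ± 68.8 in mural cells (SD over 6 to 9 libraries), with overlapping ranges. It was lower in oligodendrocytes (84.2 ± 33.2) and endothelial cells (52.1 ± 26.6) and lowest in microglia (6.74 ± 4.35). Its log2 difference was 2.02 (SE 0.15, adjusted p = 1.04e-26) in astrocytes, −0.81 (SE 0.26, adjusted p = 0.0067) in endothelial cells and −3.64 (SE 0.48, adjusted p = 2.07e-11) in microglia, and against the summed classes 1.29, −1.76 and −4.26. Cdh4 (R-cadherin) was at 72.4 ± 36.1 in GABAergic neurons, 67.0 ± 16.8 in excitatory neurons and 49.3 ± 27.4 in mural cells, and was raised in all 3 by 2.43 to 2.96 log2 units, or 0.92 to 1.36 against the summed classes. The first reference also called Cdh4 higher in astrocytes (1.88) and OPC (1.86), where it was not called against the summed classes (0.30 and 0.41). Cdh15 (the muscle cadherin) had 11 UMIs and did not pass the filter.

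Cdh5 (VE-cadherin, the adhesion molecule of endothelial junctions, at bases 106625525 to 106668402 of chromosome 8 on NCBIM37) was a type II cadherin with its highest level in endothelial cells. In the 9 endothelial sums it ran from 110 through a median of 491 to 562 CPM, and in 7 mural sums from 0 through 168 to 339. The lowest endothelial value came from CORT/Ket mouse 9967, whose 30 endothelial cells held 18197 UMIs. In the other classes the highest single library was at 15.1 CPM (OPC), below every endothelial library but within the mural range. The log2 difference was 7.51 (SE 0.20, adjusted p = 6e-81) in endothelial cells and 5.92 (SE 0.32, adjusted p = 3.61e-41) in mural cells. Against the summed classes, which contain the endothelial cells, it was 5.11 (SE 0.27) and 0.86 (SE 0.20). Of 1083 endothelial cells, 53.4% had a Cdh5 UMI (exact 95% interval 50.3% to 56.4%, median 1384 UMIs per cell), against 19.3% of 270 mural cells (14.7% to 24.5%, median 1636) and 0.296% of 1014 excitatory neurons (median 1618), in which the gene is not known to be used. Intervals here cover counting error only.

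Cdh5 in mural cells was set beside the endothelial markers in the same cells. Mural UMIs were pooled over the 7 mice with at least 10 mural cells, and endothelial UMIs over all 9 libraries of the class comparison. Pooled mural cells held Cdh5 at 42.8% of the pooled endothelial level, and the 10 endothelial markers at 31.0% (Cldn5) to 48.0% (Flt1) of theirs. By mouse, the summed endothelial markers in mural cells were 21.1% to 48.3% of the endothelial level and Cdh5 was 0% to 60.3%. The pooled Cdh5 value was thus inside the range of the pooled markers. The part of endothelial RNA in the mural value was not tested. In the same pools Pcdh1 was at 117%, Pcdh19 at 131% and Pcdh12 at 144% of the endothelial level, all above the marker range, and Pcdh18 stood at 217 CPM in mural against 4.64 in endothelial cells. By mouse, Pcdh1 ran from 0% (9946) to 243% (9968) and Pcdh19 from 89.2% (9971) to 171% (9949). Both thus lay above the endothelial level in some mice and below it in others. Pcdh12 rested on 12 mural and 28 endothelial UMIs. Its mean over libraries, given further on, was lower in mural than in endothelial cells, so its direction is not settled.

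**Figure D2:**
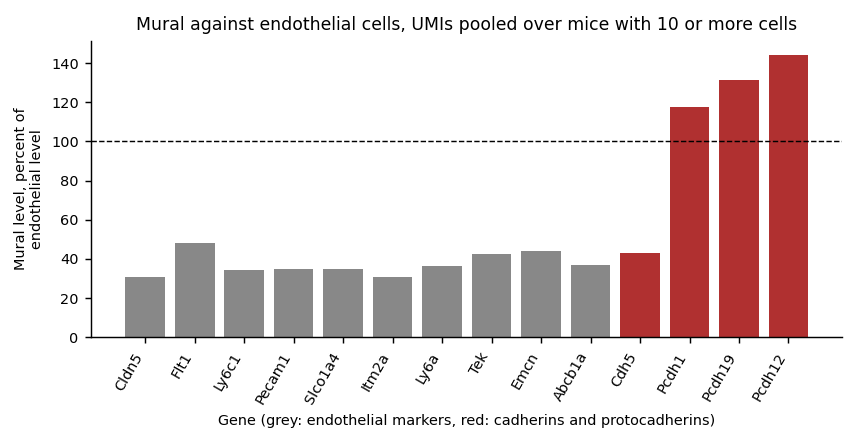
Mural level as a percent of the endothelial level (vertical axis) for the 10 endothelial markers (grey) and 4 members (red). UMIs were pooled over the libraries that each class had in the class comparison, which were fewer for mural cells. The dashed line marks 100%. Cdh5 at 42.8% lies among the markers, and Pcdh1, Pcdh19 and Pcdh12 lie above 100%. The mean of Pcdh12 over libraries, unlike this pooled value, was lower in mural than in endothelial cells.

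The remaining type II cadherins were found mainly in glia and neurons. Cdh19 (a cadherin of glia and the neural crest) was at 108 ± 94.0 in astrocytes (0 to 315, median 78.3) and 73.9 ± 47.0 in oligodendrocytes (0 to 161, median 74.0), and at 30.1 ± 18.9 in OPC. Its log2 difference was 4.92 (SE 0.30) in astrocytes, 4.83 (SE 0.36) in oligodendrocytes and 2.86 (SE 0.50) in OPC, with adjusted p of 5.19e-07 or less in each. Against the summed classes the call held in astrocytes (3.12, SE 0.32) and not in OPC (−0.05, adjusted p = 0.947), and Cdh19 was not tested in oligodendrocytes. A Cdh19 UMI was present in 19% of oligodendrocytes and 12.9% of astrocytes. It was seen in 0 of 297 GABAergic neurons, which allows a share of up to 1.23%. Cdh20 was highest in the same glia, at 70.9 ± 23.6 in OPC, 50.1 ± 25.2 in astrocytes and 34.3 ± 21.0 in oligodendrocytes, and its mean was at most 3.6 in any other class. It was below the filter on low counts and was called higher in all 3 glial classes (log2 4.10, 4.0 and 3.44) when that filter was dropped, and in OPC (2.05) against the summed classes.

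Cdh10, Cdh11 and Cdh6 had their highest mean in OPC. Cdh10 was at 264 ± 104 in OPC and 205 ± 56.0 in astrocytes, against 87.7 ± 26.3 in excitatory neurons and 0.3 in endothelial cells, and its log2 difference was 4.57 (SE 0.27, adjusted p = 7.58e-36) in OPC, or 1.79 (SE 0.20) against the summed classes. In astrocytes Cdh10 was called higher by 4.40 (SE 0.22), or 2.01 (SE 0.18) against the summed classes, where it exceeded the OPC value. The excitatory level was called higher by 3.05 and did not pass against the summed classes (0.19, adjusted p = 0.430). Cdh11 was at 146 ± 29.0 in OPC, 118 ± 77.9 in astrocytes and 74.2 ± 85.7 in mural cells. It was called higher in OPC (3.38) and astrocytes (3.24), and also against the summed classes (1.51 and 1.56). The first reference also called Cdh11 higher in excitatory (2.37) and GABAergic (2.19) neurons, mural cells (1.63) and oligodendrocytes (1.43). None of those calls held against the summed classes. Cdh6 was at 123 ± 54.7 in OPC, 50.4 ± 45.4 in GABAergic neurons and 27.4 ± 23.2 in mural cells. Cdh11 was lower in endothelial cells against the summed classes (−4.18, SE 0.36), where Cdh6 was not tested, and neither was called there by the first reference. Cdh24 had 53.5 ± 32.4 in OPC and 37.1 ± 45.9 in GABAergic neurons.

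A further set was found mainly in neurons. Cdh8 (a cadherin of particular cortical and limbic circuits) ran from 18.4 through a median of 60.9 to 96.5 CPM in excitatory neurons and from 17.9 through 45.6 to 118 in GABAergic neurons, with no mean above 6.3 elsewhere. Its log2 difference was 4.24 (SE 0.36, adjusted p = 4.08e-23) in excitatory and 4.07 (SE 0.47, adjusted p = 5.54e-14) in GABAergic neurons, and 2.60 (SE 0.42) in excitatory neurons against the summed classes. Cdh7 was at 57.1 ± 26.3 in excitatory and 86.9 ± 55.1 in GABAergic neurons, and was higher in both against the summed classes too (2.26 and 1.89). Cdh22 (51.4 and 43.0), Cdh9 (22.7 and 29.7) and Cdh12 (32.2 and 10.1) were also highest in the neuron classes but did not pass the low-count filter of the first class fit, and all 3 were called higher in both neuron classes without it. Cdh18 had similar means in OPC (17.1), excitatory neurons (12.2) and GABAergic neurons (12.3).

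The other Cdh genes gave a neuron and OPC pattern and a microglial pattern. Cdh13 (T-cadherin, which is anchored by a lipid and lacks the catenin-binding tail) was at 247 ± 56.4 in OPC, 131 ± 44.9 in GABAergic neurons, 92.1 ± 51.4 in excitatory neurons and 46.0 ± 46.6 in endothelial cells. By the first reference it was the single member called lower in astrocytes (5.5 CPM, log2 −1.34, SE 0.50, adjusted p = 0.0216) and in oligodendrocytes (4.0 CPM, log2 −1.89, SE 0.68, adjusted p = 0.0184). Against the summed classes Pcdh15 (−5.08) and Pcdh19 (−1.63) were lower in astrocytes beside Cdh13 (−2.88). Cdh23 (known with Pcdh15 for the tip link of inner-ear hair cells; bases 59765496 to 60159238 of chromosome 10 on NCBIM37) had 51 of its 58 UMIs in microglia. Its 6 microglial libraries ran from 25.9 through a median of 30.6 to 39.0 CPM, and the highest library of any other class was at 18 (excitatory neurons, 3 UMIs in all). A Cdh23 UMI was seen in 5.79% of 863 microglia (4.33% to 7.57%, median 1587 UMIs) and in 0 of 1357 astrocytes (up to 0.271%, median 1542). Cdh23 was under the filter on low counts and had a log2 difference of 5.20 (SE 0.50, adjusted p = 2.32e-24) without it. Against the summed classes it was 5.48 (SE 0.48, adjusted p = 9.16e-15), the single member higher in microglia. Pcdh15, its tip-link partner, was at 2.42 CPM in microglia, and Cdh23 had 0 UMIs in OPC.

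Pcdh9, a δ1-protocadherin and the member with the most UMIs (3419), was highest in oligodendrocytes. The 8 libraries there ran from 547 through a median of 938 to 1306 CPM, against 405 to 742 in OPC, 209.9 to 898 in astrocytes, 188 to 558 in excitatory neurons and 235 to 481 in GABAergic neurons. The oligodendrocyte range overlapped all of these except the GABAergic one, and endothelial (20.1 ± 19.9), microglial (18.1 ± 11.5) and mural (6.56 ± 8.27) cells lay far below. The log2 difference was 3.90 (SE 0.16, adjusted p = 2.98e-56) in oligodendrocytes and −3.53 (SE 0.69, adjusted p = 6.2e-06) in mural cells. By this reference OPC (3.09), excitatory neurons (2.37), astrocytes (2.26) and GABAergic neurons (2.01) were also called higher. Against the summed classes oligodendrocytes were higher by 2.12 (SE 0.15, adjusted p = 4.07e-11) and OPC by 1.37 (SE 0.17, adjusted p = 9.71e-11). Excitatory neurons (0.29, adjusted p = 0.269), astrocytes (0.36, adjusted p = 0.164) and GABAergic neurons (0.006, adjusted p = 0.989) were not called against the summed classes. A Pcdh9 UMI was present in 79.7% of oligodendrocytes (75.2% to 83.6%), 58.6% of OPC and 2.67% of microglia.

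The other δ1 genes did not share that order. Pcdh7 was at 309.9 ± 140 in excitatory neurons, 290 ± 158 in OPC, 277 ± 139 in GABAergic neurons and 262 ± 80.8 in astrocytes, ranges that overlapped fully, and at 15.1 in oligodendrocytes. Pcdh11x was at 377 ± 81.4 in OPC (259 to 487, median 370) and at most 81.8 elsewhere, with a log2 difference of 5.20 (SE 0.25, adjusted p = 4.58e-47). Pcdh1 was at 135 ± 87.5 in mural cells, 119 ± 32.5 in endothelial cells, 116 ± 36.5 in excitatory neurons and 98.5 ± 54.2 in astrocytes, but at 6.8 in oligodendrocytes. It was called higher in each of these 4 classes, in GABAergic neurons and in OPC, with log2 differences of 1.24 to 2.51, and against the summed classes in mural (0.79), endothelial (0.67) and excitatory (0.50) cells but not in astrocytes (0.26, adjusted p = 0.233), GABAergic neurons (−0.50, adjusted p = 0.129) or OPC (−0.38, adjusted p = 0.225).

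Of the δ2 genes, Pcdh18 (chromosome 3, bases 49547218 to 49561238 on NCBIM37) was highest in mural cells. Its 7 mural libraries ran from 137 through a median of 287 to 651 CPM. No library of another of the 10 classes was above 33.6, and fibroblasts were not measured. The log2 difference in mural cells was 6.41 (SE 0.30, adjusted p = 1.97e-47) and 6.20 (SE 0.27, adjusted p = 1.15e-109) against the summed classes. A UMI was present in 37.8% of mural cells (32.0% to 43.9%) and in 0.831% of endothelial cells (0.381% to 1.57%). GABAergic neurons held 15.5 ± 11.9 CPM, called higher by 1.54 log2 units (adjusted p = 0.0156) from 11 UMIs. The Pcdh18 start window printed above held none of the strings searched.

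Pcdh10 and Pcdh17 were high in OPC, astrocytes and neurons. Pcdh10 was at 462 ± 81.6 in OPC (377 to 609), 420.5 ± 105 in astrocytes (224 to 548), 336 ± 121 in GABAergic neurons (181 to 544) and 176 ± 19.4 in excitatory neurons (150.3 to 209). The excitatory range lay below all OPC and astrocyte libraries and overlapped the GABAergic one. Its log2 difference was largest in astrocytes, at 3.82 (SE 0.17, adjusted p = 3.15e-50), or 1.92 (SE 0.26) against the summed classes. In excitatory neurons it was 2.23 by the first reference and −0.27 (adjusted p = 0.124) by the second. Pcdh17 was at 509.8 ± 94.5 in OPC, 276 ± 80.7 in GABAergic neurons, 242 ± 103 in excitatory neurons and 199 ± 54.6 in astrocytes. It was lower in endothelial cells (log2 −1.79), microglia (−2.63), macrophages (−3.11) and ependymal cells (−2.83, adjusted p = 0.00729, the single member called lower there by this reference).

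Pcdh19 (an X-linked gene whose mutations cause an epilepsy) combined vessel and neuron levels. It was at 139 ± 32.0 in mural cells, 134 ± 43.1 in GABAergic neurons, 114 ± 22.9 in endothelial cells, 102 ± 69.8 in excitatory neurons and 59.6 ± 26.7 in OPC, and at 18.9 in astrocytes and 4.6 in oligodendrocytes. Its log2 difference was 3.44 (SE 0.33) in mural, 3.06 (SE 0.27) in endothelial, 2.99 (SE 0.36) in GABAergic and 2.85 (SE 0.28) in excitatory cells. Against the summed classes it was called in mural (1.32) and endothelial (1.00) cells and not in GABAergic (0.60, adjusted p = 0.0597) or excitatory (0.37, adjusted p = 0.213) neurons. Pcdh8 (arcadlin, induced by neuronal activity) was highest in GABAergic neurons, where libraries ran from 51.6 through a median of 168 to 319 CPM. OPC (0 to 109) and excitatory neurons (0 to 89.5) overlapped that range, and other means were at most 8.6. The GABAergic log2 difference was 4.86 (SE 0.36, adjusted p = 2.07e-27), or 2.75 (SE 0.36) against the summed classes.

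Pcdh15, outside the δ groups, was highest in OPC. Its 6 OPC libraries ran from 738 through a median of 979 to 1083 CPM, and the highest library elsewhere was at 179 (GABAergic). The log2 difference in OPC was 7.36 (SE 0.21, adjusted p = 1.55e-74), or 5.50 (SE 0.30, adjusted p = 4.86e-10) against the summed classes. In oligodendrocytes (36.7 ± 40.0 CPM) the direction depended on the reference, at 2.45 against the mean of the classes and −0.92 (adjusted p = 0.0163) against the summed classes. A Pcdh15 UMI was present in 72.1% of 394 OPC (67.4% to 76.5%, median 1170.5 UMIs per cell), 15% of excitatory neurons, 13.1% of GABAergic neurons and 9.09% of oligodendrocytes, and in 0.442% of astrocytes. The lower share in oligodendrocytes came with a higher median depth (2012.5 UMIs). Pcdh20 had a like order, at 136 ± 32.8 in OPC, 44.2 ± 20.2 in excitatory neurons and 31.7 ± 46.3 in GABAergic neurons. Pcdh12 (an endothelial protocadherin) was found in endothelial (20.3 ± 34.7, 28 UMIs) and mural (16.7 ± 13.4, 12 UMIs) cells and in 1 astrocyte.

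**Figure D3:**
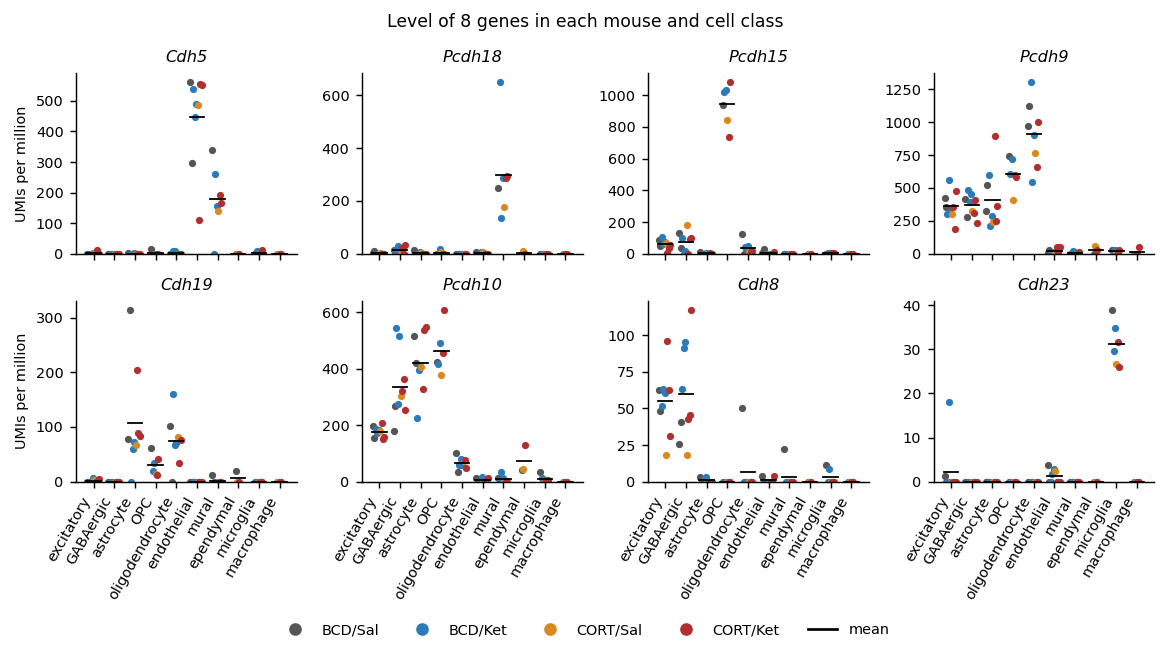
Level in CPM (vertical axis) of 8 members in each class (horizontal axis); each point is 1 mouse coloured by treatment group and the line is the mean. Cdh5, Pcdh18, Pcdh15 and Cdh23 are concentrated in endothelial and mural, mural, OPC and microglial cells, Cdh8 in the neuron classes, and Pcdh9, Cdh19 and Pcdh10 extend over several glial classes.

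The clustered protocadherins were sparse, with 7 α, 21 β and 21 γ members. The α cluster lay in neurons and OPC: its summed level was 65.2 ± 26.0 CPM in GABAergic neurons (34.2 to 118), 54.6 ± 41.7 in OPC (22.5 to 135) and 41.8 ± 22.5 in excitatory neurons (12.5 to 78.9). In the other 7 classes it was between 0 and 1.73, and 151, 43 and 32 of its UMIs were in excitatory neurons, GABAergic neurons and OPC. Most of it was the first of the 2 rows named Pcdha11, at 33.0 in GABAergic neurons, 27.6 in OPC and 22.1 in excitatory neurons. The α and γ genes of a cluster share their last exons, so tags near the 3′ end can be given to the wrong isoform, and single α or γ values are uncertain.

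The β genes, which are single exons, reached 352 ± 84.3 CPM in OPC (288 to 516), 298 ± 68.6 in GABAergic neurons (183 to 418) and 203 ± 77.3 in excitatory neurons (119.6 to 345). Astrocytes had 137 ± 91.7, mural cells 76.7 ± 30.04, endothelial cells 53.5 ± 14.5, oligodendrocytes 36.5 ± 19.3 and microglia 5.18 ± 3.91. Pcdhb9 was at 78.1 ± 45.9 in OPC (0 to 129), 17.5 in GABAergic neurons, 2.5 in excitatory neurons and at most 3.1 elsewhere. Its log2 difference in OPC was 5.39 (SE 0.43, adjusted p = 9.59e-23), and a UMI was present in 11.2% of OPC against 0.147% of astrocytes. That value is against a mean that includes mural, ependymal, microglial and macrophage classes with 0 Pcdhb9 UMIs. Pcdhb9 was not tested in OPC against the summed classes. Pcdhb17 had means of 32.6 in excitatory and 46.3 in GABAergic neurons and 46.4 in astrocytes, where 1 library at 299 carried the mean over a median of 17.0.

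The γ cluster was found in most classes. It was at 306 ± 113 in OPC, 240.4 ± 131 in GABAergic neurons, 221 ± 82.1 in astrocytes, 186 ± 55.5 in endothelial cells, 171 ± 72.6 in excitatory neurons, 168 ± 59.7 in mural cells and 130.5 ± 83.8 in ependymal cells, with overlapping ranges throughout. Microglia had 69.7 ± 36.9 and oligodendrocytes 63.9 ± 49.7. Pcdhga12 was between 12.4 and 59.7 in 9 classes. Pcdhgc4 (a C-type isoform) was higher in GABAergic neurons (52.3), astrocytes (47.9), OPC (40.6) and excitatory neurons (23.4), with log2 differences of 1.79 to 2.57, and against the summed classes in astrocytes (1.49) and OPC (0.98). Its identifier spans the whole γ cluster in the annotation used for coordinates.

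**Figure D4:**
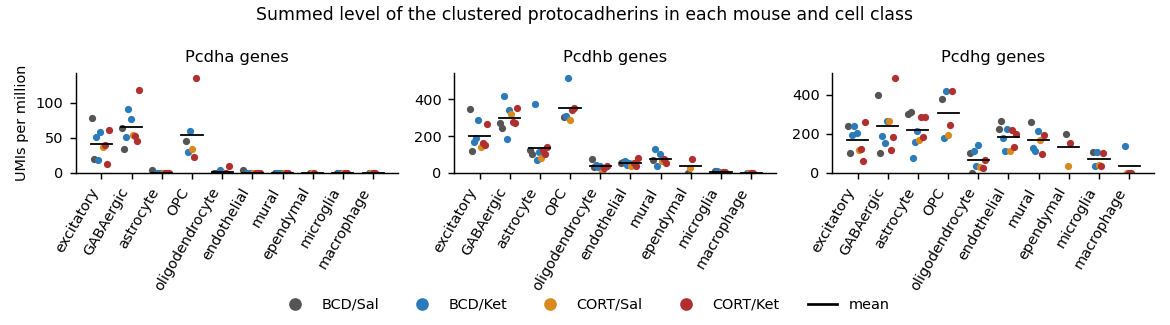
Summed level in CPM (vertical axis) of the Pcdha, Pcdhb and Pcdhg members in each class (horizontal axis); each point is 1 mouse coloured by treatment group and the line is the mean. Pcdha points are near 0 outside OPC and the neuron classes, Pcdhb points are highest in OPC at a mean of 352, and Pcdhg points are spread over most classes.

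Within neurons, 2 excitatory clusters (numbers 10 and 4) and the GABAergic cluster (number 8) were compared over 2750 genes, of which 8 were members. Cluster 10, led by Reln and Slc17a6, had higher Pcdh7 (407 ± 129 CPM, log2 0.67, SE 0.21, adjusted p = 0.00891), Pcdh1 (140 ± 52.1, log2 0.60, SE 0.23, adjusted p = 0.0258) and Cdh2 (207 ± 70.6, log2 0.58, SE 0.22, adjusted p = 0.0308), against 54.8% of all genes called in either direction. Cluster 4 had lower Pcdh10 (137 ± 49.7, log2 −0.71, SE 0.22, adjusted p = 0.0135), Pcdh17 (147 ± 104, log2 −0.78, SE 0.26, adjusted p = 0.0164) and Pcdh19 (61.8 ± 55.9, log2 −0.94, SE 0.31, adjusted p = 0.0175), against 42.7% of all genes. In the GABAergic cluster Pcdh10 was higher (336 ± 121, log2 0.95, SE 0.20, adjusted p = 0.00126), against 13.1% of all genes. The shares of members called, 3 of 8 in clusters 10 and 4, were not above those backgrounds of calls in either direction. In the direction of the member calls, 28.4% of all genes were higher in cluster 10, 22.4% lower in cluster 4 and 6.04% higher in cluster 8. The member shares lay above these, but 8 members are too few to read this as a result. Depth and nuclear RNA moved with the clusters: the median UMI count was 4316, 1268 and 2021 in clusters 10, 4 and 8, Meg3 was at 12544, 36598 and 25431 CPM, and 48.1% of cluster 4 came from mouse 9901. Their part in these differences was not tested. Without the mouse block Cdh2 (0.47, adjusted p = 0.0781) and Pcdh17 (−0.58, adjusted p = 0.0835) were not called, and a minimum of 30 cells per library and cluster left clusters 4 and 8 only, set against each other, with 14 members tested and 0 called. There Pcdh10 was 0.74 higher in the GABAergic cluster (SE 0.27, adjusted p = 0.0618), and the values of Pcdh17 (−0.12) and Pcdh19 (−0.34) in cluster 4 were smaller than their SE. Leaving out 1 library ended the call of Cdh2 (mice 9986, 9901 or 9947), Pcdh1 (9986, 9901 or 9971), Pcdh17 (9969) and Pcdh19 (9969 or 9971), with adjusted p between 0.0511 and 0.155.

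Partners, regulators and relatives of the family were taken as 5 lists. For each, the calls against the summed classes are given beside those against the mean of the classes. Of 9 catenins, which tie classical cadherins to actin, 8 were tested by the first reference and 6 to 8 by the second in the classes named here. Endothelial cells had 5 higher and 2 lower by both references (of all genes 29.8% were higher and 15.4% lower by the first, and 27.4% and 36.2% by the second), with Ctnna1 (log2 2.51, or 2.17 against the summed classes), Ctnnb1 (2.38 and 2.18), Jup (2.00 and 1.51) and Pkp4 (1.64 and 1.23) raised. Mural cells had 5 higher and 1 lower, or 4 and 1 (all genes 23.9% and 8.59%, or 16.4% and 23.0%). Excitatory neurons had 3 higher and 3 lower, or 1 and 3 (all genes 44.4% and 16.5%, or 30.4% and 30%), with the neural α-catenin Ctnna2 raised (2.85 and 0.84) and the epithelial Ctnna1 lowered (−2.40 and −3.48). OPC had 3 higher and 4 lower by both (all genes 29.2% and 8.47%, or 16.5% and 21.8%). The median over tested catenins was 1.58 in endothelial cells (all genes −0.03) and −0.07 in excitatory neurons (all genes 0.30).

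The same shares of all genes apply to the other lists. Of 10 cadherin junction partners 8 were tested by the first reference. Excitatory neurons had 6 higher and 2 lower, or 4 and 2 of 9 against the summed classes, including the receptor phosphatase Ptprt (3.16 and 1.49) and the nectin Nectin1 (2.78 and 1.54) among those raised. OPC had 6 higher and 1 lower, or 5 and 2 of 10, with a median of 1.51 by the first reference (all genes 0.16). Endothelial cells had 3 higher and 0 lower, or 2 and 5 of 8, with Afdn, which links nectins to actin, raised (2.07 and 1.70) and Ptprt at −4.03 against the summed classes. All 10 protocadherin signalling partners, kinases and parts of the WAVE complex, were tested. Excitatory neurons had 6 higher and 0 lower, or 6 and 2, led by the kinase Ptk2b (5.27 and 3.07) and the WAVE subunits Wasf1 (3.44 and 2.46) and Cyfip2 (3.42 and 2.68). Microglia had 4 higher and 4 lower (all genes 26.7% and 12.2%), or 3 and 6 (28.0% and 34.9%), with Cyfip1 (2.87 and 2.65) raised. Of 7 regulators of the clustered genes 6 were tested by the first reference. Endothelial cells had 4 higher and 1 lower by both, with the insulator protein gene Ctcf (0.82 and 0.73) and the cohesin genes Rad21 (0.82 and 0.87) and Smc1a (0.67 and 0.68) raised, and excitatory neurons had 2 higher and 3 lower, or 1 and 4, with Rad21 lowered (−1.20 and −1.39). Of 13 other cadherin-repeat genes 4 were tested by the first reference, and the calsyntenin Clstn3 was higher in GABAergic (4.91 and 1.96) and excitatory (4.70 and 2.44) neurons.

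Treatment was compared within each class over mice, in fits that held all 4 groups, for contrasts with at least 2 libraries a group. Not every contrast could be tested in each class. No member was called by edgeR in any contrast. For BCD/Ket against BCD/Sal, 37 members gave 80 tests in 5 classes, with 3 at an unadjusted p under 0.05, or 3.75% against 2.63% of all gene-by-class tests (0.00665% of which were called). For CORT/Ket against BCD/Ket, 40 members gave 106 tests in 8 classes, with 1 at that level, or 0.943% against 2.05% of all tests (0.0157% called). CORT/Sal against BCD/Sal (0.0943% of all genes called), CORT/Ket against CORT/Sal (0.00%) and the contrast between both ketamine effects (0.00%) could be tested in endothelial cells only, with 7 members and 0 at that level against 6.47%, 2.00% and 3.83% of all genes, and the CORT/Sal arm there included 11 cells of mouse 9970. DESeq2 called 0 members and had 0 at an unadjusted p under 0.05 in each contrast. The shares of all genes in the DESeq2 fits are not given, so these counts cannot be read as particular to the members. The median log2 difference of members was −0.08 for BCD/Ket against BCD/Sal (all genes 0.02) and −0.05 for CORT/Ket against BCD/Ket (all genes 0.00). In such sums fewer cells of a subtype and less RNA per cell cannot be told apart.

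The class leaders were measured as follows. Endothelial Cdh5 was at 562 and 296 CPM in BCD/Sal, at 539.5, 446 and 491 in BCD/Ket, at 486 and 586 in CORT/Sal and at 110, 556 and 553 in CORT/Ket, so all groups overlapped. The value of 586 was from mouse 9970 and rested on 2 Cdh5 UMIs among 3411 UMIs of 11 cells. Its log2 difference was −0.08 for CORT/Sal against BCD/Sal (95% interval −1.33 to 1.16), 0.12 for CORT/Ket against CORT/Sal (−1.02 to 1.25) and 0.17 for BCD/Ket against BCD/Sal (−0.90 to 1.24), so that changes of up to about 1 log2 unit were not detectable. The first pair of signs is opposite to that of the unweighted group means, which were 536 for CORT/Sal, 429 for BCD/Sal and 406 for CORT/Ket. The fit, unlike these means, takes in each library's depth and scaling factor. Without mouse 9970 the values were 0.21 (SE 0.58) and −0.18 (SE 0.54), with 1 CORT/Sal library left, so no direction can be given. Astrocytic Pcdh10 was at 517 and 419 in BCD/Sal, 224, 395 and 409 in BCD/Ket, 408 in the single CORT/Sal library and 327, 538 and 548 in CORT/Ket. The BCD/Ket values all lay below BCD/Sal, with a log2 difference of −0.25 (−1.79 to 1.28, adjusted p = 0.999). However, the 419 came from mouse 9947, with 9536 UMIs in 14 astrocytes, and the 224 from mouse 9946, with 13386 UMIs in 27. At the depth of mouse 9947 a single UMI is worth more than the gap between 419 and 409, so this order is not read as a result. Oligodendrocytic Pcdh9 differed by −0.20 (−0.86 to 0.46) for BCD/Ket against BCD/Sal, and in CORT/Ket against BCD/Ket the intervals were −1.14 to 0.68 for Pcdh15 in OPC and −0.56 to 1.35 for Pcdh18 in mural cells.

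Some of the members with the smallest p-values rested on few UMIs or a single mouse. Pcdhga5 in astrocytes was at 30.6 and 0 CPM in BCD/Sal and 0, 0 and 2.80 in BCD/Ket, all 9 BCD/Sal UMIs being from mouse 9901 (log2 −4.26, SE 1.05, adjusted p = 0.0736). With no filter on low counts its adjusted p was 0.0453, the one member past the threshold in any alternative. Pcdh17 in oligodendrocytes was at 214 and 68.0 in BCD/Sal and 30.1, 92.6 and 76.7 in BCD/Ket (log2 −1.18, SE 0.53, adjusted p = 0.976), groups that overlapped, and without mouse 9901 the difference was 0.19. Cdh2 in GABAergic neurons was at 90.4 and 52.9 in BCD/Sal and 291, 213 and 114 in BCD/Ket (log2 1.53, SE 0.64, adjusted p = 0.999), without overlap. These sums were small, the 213 being from mouse 9949 (12 cells, 32820 UMIs) and the 114 from mouse 9986 (33 cells, 52477 UMIs). Pcdh9 in endothelial cells, at 0, 7.05 and 14.8 in BCD/Ket and 55.0, 11.9 and 48.7 in CORT/Ket, differed by 1.68 (SE 0.77, adjusted p = 1.00) and overlapped. In excitatory neurons 30 members were tested in each of their contrasts, and 0 had an unadjusted p under 0.05. Of all genes in that class, 1.07% had one for BCD/Ket against BCD/Sal and 2.15% for CORT/Ket against BCD/Ket. With 30 members a count of 0 is near these shares, so it is not read as a result about the members. The smallest p belonged to Cdh12 (0.80, interval −0.55 to 2.15) for the first contrast and to Pcdh15 (−1.0, interval −2.02 to 0.01) for the second. The 5 partner lists gave 0 calls in 84 (catenins), 87 (junction partners), 121 (signalling partners), 97 (regulators) and 51 (other cadherin-repeat genes) tests.

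**Figure D5:**
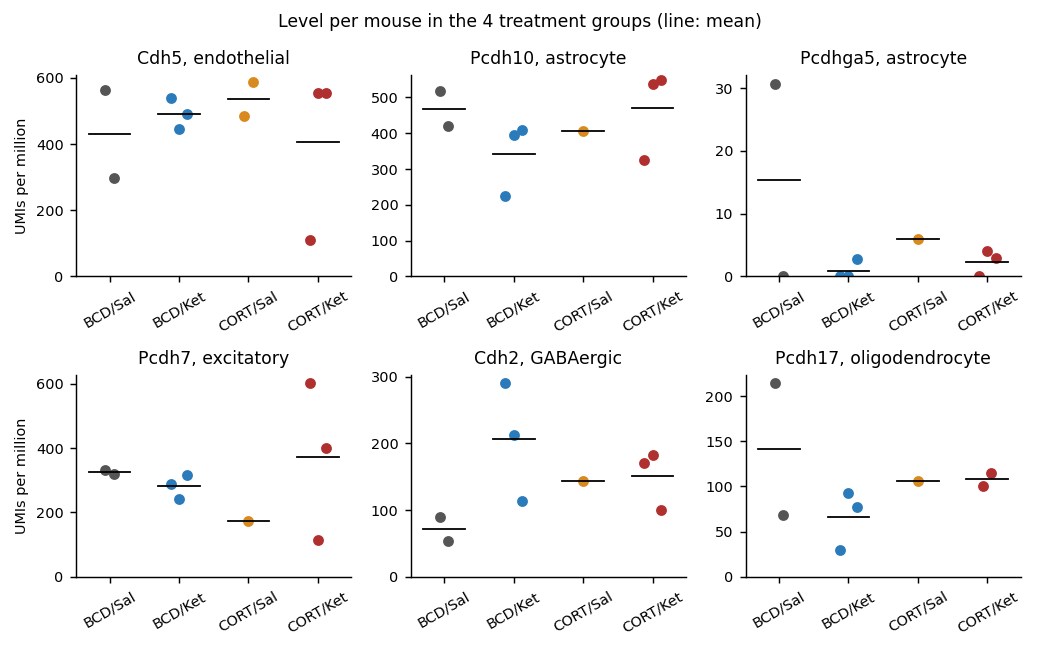
Level in CPM (vertical axis) of 6 member and class pairs in the 4 treatment groups (horizontal axis); each point is 1 mouse and the line the group mean. Groups overlap for Cdh5 in endothelial cells and Pcdh17 in oligodendrocytes, the Pcdhga5 mean of BCD/Sal is set by the library at 30.6, and Cdh2 in GABAergic cells is higher in all 3 BCD/Ket mice than in either BCD/Sal mouse.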

How the data were processed

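The data were droplet single-cell RNA libraries, 1 per mouse. The deposited files were tables of UMI counts per gene and barcode, whole numbers with no normalization, made by the authors with Cell Ranger 3.0.2 according to the file headers. The processing notes name mm9 and Seurat 3.1.1, but the gene identifiers go beyond that annotation, so the build behind the counts was not settled. The 10 BLA libraries were used and the prefrontal cortex libraries were not analysed here. The number of table columns belonging to other series was 0.

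Barcodes with at most 12.5% mitochondrial UMIs and at least 200 genes were kept. They were clustered with scanpy 1.11.5 under Python 3.11.15 (2000 variable genes without the members, 30 components, 20 neighbours, leidenalg 0.10.2 at resolution 0.8). A cluster was named from at least 3 markers among its 50 leading genes, by folds with a pseudocount of 0.1 per 10000. With a pseudocount of 0.001, cluster 4 would have stayed unnamed, and it was left out as an alternative. Clusters with over 90% of cells from 1 library were left unnamed, which was decided after the clusters had been seen. In all, 8305 barcodes in 17 clusters were kept, 2397 of them from mouse 9970. Doublets were not removed, and an alternative removed 216 called doublets (2.60%).

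UMI counts were summed per library and class with at least 10 cells. Sums were tested with edgeR 4.0.16 (quasi-likelihood, TMM, filterByExpr) in R 4.3.3, with Benjamini-Hochberg adjustment over all genes tested and a threshold of 0.05. DESeq2 1.42.0 was an alternative. Classes and neuron clusters were compared with the mouse as a block, since they came from the same animals. Treatment groups share no mouse, so p-values measure the spread between mice. Intervals of log2 differences are 95% and use the normal quantile with the fitted SE. The exact 95% intervals of cell shares cover counting error only. The scripts were tested on simulated data.

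Members and partner lists were chosen with earlier results of these data known. Any member could be named. For a class the rule was up to 5 called members by fold, and for a treatment contrast the 3 smallest p-values where none was called. Gene spans came from the NCBIM37 annotation by Ensembl identifier, matched for 53 of 79 members, and start-site windows from RefSeq (GRCm38.p6).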

Additional observations from a re-analysis of the deposited data

Results flagged for a closer look

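A signal was present in data that no comparison used. The 20293 barcodes removed from the 9 libraries for their mitochondrial share held 28541 member UMIs, against 26148 in the kept barcodes. Per 1000000 UMIs that were not mitochondrial this was 1839 in the removed and 2107 in the kept barcodes. The members were chosen by their UMIs in the kept barcodes, which favours the kept side, so neither comparison is read as a result. Pcdh9 was at 241 and 276, Pcdh10 at 199 and 194, and Pcdh17 at 193 and 165 on that scale.

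The cluster made up of cells of CORT/Sal mouse 9970 held 5750 member UMIs in 2345 cells, or 1570 CPM. Pcdh17 led it with 607 UMIs, followed by Pcdh10 with 519 and Pcdh1 with 447. There is 1 such library, so these values have no replicate check.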

How the results depend on the processing

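The comparison of classes called 24 members higher in at least 1 class, in 94 member-by-class tests, with 18 called lower. Against the summed other classes, chosen after the data had been seen, 53 tests were called higher and 78 lower. Of 97 calls tested by both references 15 changed direction, and 2 of these were called the other way, Pcdh15 (log2 −0.92) and Pcdh17 (−0.57) in oligodendrocytes. Uncalled reversals were Cdh10 (−0.066), Pcdh11x (−0.15) and Cdh11 (−0.53) in oligodendrocytes, Pcdh15 (−0.10), Cdh10 (−0.79), Pcdh1 (−0.50) and Cdh2 (−0.26) in GABAergic neurons, Pcdh15 (−0.20) and Pcdh10 (−0.27) in excitatory neurons, Cdh19 (−0.05), Pcdh19 (−0.17) and Pcdh1 (−0.38) in OPC, and Cdh11 (−0.26) in mural cells. The number called lower was 68 by DESeq2, 43 with at least 30 cells, 33 with at least 500 genes and 38 with doublets removed. With at most 5% mitochondrial UMIs, which left 13 members tested, 13 were called, in 40 tests. Without a filter on low counts 64 members were called, in 179 tests. Leaving out 1 library at a time gave 20 to 25 members, 81 to 95 higher and 10 to 20 lower, the lowest without CORT/Ket mouse 9971. Without the replicate block, which pairs classes of the same mouse, there were 24 members, 93 higher and 17 lower. In neuron clusters 7 tests were called, 5 without the replicate block, 5 to 10 leaving out 1 library, 0 with at least 30 cells (14 members in clusters 4 and 8 only), 0 with at most 5% mitochondrial UMIs (2 members in the same clusters) and 18 without a filter on low counts. For treatment 0 member tests were called in each of 5 contrasts, and 1 (Pcdhga5 in astrocytes, BCD/Ket against BCD/Sal) without a filter. The cause of these changes was not tested, except that fewer members were tested with fewer barcodes. Shares of all genes called are not given for these alternatives, so their counts cannot be read as particular to the members. Treatment groups shared no mouse number, so no block could be fitted there. With 2 mice in BCD/Sal, 1 usable CORT/Sal mouse in every class but endothelial cells, and 1 UMI worth up to 293 CPM (endothelial cells of mouse 9970), small treatment differences were not detectable at this depth.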

Other observations

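Within the γ cluster, the cluster made up of cells of CORT/Sal mouse 9970 held several variable genes at lower levels than the 9 other libraries together. Pcdhga5 had 1 UMI there (0.273 CPM against 8.78), Pcdhga7 had 1 (0.273 against 7.95), Pcdhga6 had 2 (0.546 against 7.35) and Pcdhgb4 had 3 (0.819 against 11). Pcdhga12 with 122 UMIs (33.3 against 36.2), Pcdhgc4 with 77 (21.0 against 21.2) and Pcdhgc5 with 51 (13.9 against 14.8) stood at like levels in both. Pcdhgc3, of the same C type as Pcdhgc4 and Pcdhgc5, had 9 UMIs and was lower there (2.46 against 6.75). Among the cadherins, Cdh22 (70.2 against 14.3) and Cdh4 (65.3 against 31.1) were at higher levels there and Cdh5 (8.74 against 102) at a lower one. These genes were picked after their values were seen, and 1 library against 9 of mixed cell classes allows no test.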
